A study of Mus musculus with 12 samples.

Results

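Mast cell proteases, receptors and histamine synthesis were followed through 10 genes, each represented by the probe whose only gene symbol is that of the gene: Mcpt1, Mcpt2, Cma1, Tpsb2, Tpsab1, Cpa3, Kit, Fcer1a, Ms4a2 and Hdc. All 10 genes had exactly 1 such probe among the 28853 probes and 19938 named genes of the Affymetrix MoGene 1.0 ST array. Colon RNA came from male C57BL/6 mice, with 3 arrays, labelled biological replicates, in each of 4 groups. The authors describe the AOM/DSS samples as diseased tissue or tumors and the water samples as normal, untreated colon. The groups were TSP-1-/- mice given AOM/DSS, WT mice given AOM/DSS, TSP-1-/- mice on water and WT mice on water. TSP-1-/- mice make no thrombospondin 1, a matrix glycoprotein, because of a targeted mutation in its gene Thbs1, most of which they keep. AOM/DSS stands for a single injection of the colon carcinogen azoxymethane (AOM) together with 4 cycles of 1.5% dextran sodium sulfate (DSS) in the drinking water, which injures the colonic epithelium. The 6 water arrays are labelled with the treatment text of another experiment with DSS, and array set and treatment cannot be told apart. Each value is a log2 signal relative to a baseline of its own probe, so that a value says how a gene varied between arrays and nothing about its level relative to another gene. The methods state this baseline as the median of the 12 arrays, which is taken to hold for the AOM/DSS arrays. The water arrays lie on another one and are given re-based, that is, moved by 1 offset per probe that returns the 12-array median to 0, which leaves differences between water groups as they were.

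Mast cells arise from bone marrow progenitors, home to the gut through integrins and mature in the tissue under stem cell factor, the ligand of Kit. In the mouse, mucosal mast cells lie in the epithelium and lamina propria and store the chymases Mcpt1 and Mcpt2, whereas connective tissue mast cells of the submucosa store the chymases Cma1 and Mcpt4, tryptases and the carboxypeptidase Cpa3, the last of which mucosal mast cells can also make. Both kinds bind IgE through the high-affinity receptor, whose alpha chain is encoded by Fcer1a and beta chain by Ms4a2, and release histamine made by Hdc.

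The proximal promoters of 3 of the genes whose values moved together from array to array are printed here because GATA factors, with which mast cell genes are commonly regulated, bind words that can be read in them. Each line holds the 250 bases before the annotated start, 5' to 3' on the strand of the gene, from RefSeq on GRCm38.p6, with the GATA words in capitals. The stretches are chr14:56017714-56017963 on the plus strand for Mcpt1, chr3:20242182-20242431 on the minus strand for Cpa3 and chr1:173227230-173227479 on the minus strand for Fcer1a.
Mcpt1: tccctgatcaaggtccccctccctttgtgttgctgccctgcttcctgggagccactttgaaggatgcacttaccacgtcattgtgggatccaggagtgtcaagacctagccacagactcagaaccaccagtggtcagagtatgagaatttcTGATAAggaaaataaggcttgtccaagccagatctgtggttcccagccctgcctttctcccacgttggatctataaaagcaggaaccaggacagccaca
Cpa3: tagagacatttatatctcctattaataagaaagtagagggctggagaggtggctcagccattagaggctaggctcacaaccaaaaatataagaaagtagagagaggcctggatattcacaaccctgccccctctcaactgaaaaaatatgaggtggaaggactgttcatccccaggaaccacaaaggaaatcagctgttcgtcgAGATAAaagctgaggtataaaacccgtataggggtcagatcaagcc
Fcer1a: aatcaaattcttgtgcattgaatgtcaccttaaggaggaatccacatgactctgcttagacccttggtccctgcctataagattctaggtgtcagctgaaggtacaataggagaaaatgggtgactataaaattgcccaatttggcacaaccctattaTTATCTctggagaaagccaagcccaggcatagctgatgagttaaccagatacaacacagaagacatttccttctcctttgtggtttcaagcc
The GATA words searched on both strands were AGATAA or the variant AGATAG, as well as TGATAA or the variant TGATAG, so that TTATCT in Fcer1a is the first of them on the other strand. The word began 99 bases before the start in Mcpt1, 46 bases before it in Cpa3 and 92 bases before it in Fcer1a. Promoters could be matched for 7 of the 10 genes, and 6 of the 7 (Mcpt1, Cma1, Cpa3, Fcer1a, Ms4a2 and Hdc, not Kit) held at least 1 GATA word, against 26.5% of 32851 mouse promoters of the same length. The TATA word TATAAA was in 3 of the 7 (Mcpt1, Cpa3 and Fcer1a) and in 12.4% of all promoters, the E-box word CATGTG in 1 of the 7 (Fcer1a) and 12.3%, and the SMAD half-site CAGAC in 2 of the 7 (Mcpt1 and Hdc) and 42.2%. A match is a description of these letters and not of a bound site.

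Under AOM/DSS, transcripts of both mucosal chymases were high on all 3 TSP-1-/- arrays and on 1 of the 3 WT arrays, WT AOM/DSS replicate 1, and close to the baseline or below it on the other two. Fcer1a was called higher (1 of 10 genes, against 1.73% of all probes) and Kit lower (1 of 10, against 1.05%) in TSP-1-/- than in WT colons, and the other 8 were not called. A gene was called at an adjusted p under 0.05 (limma, Benjamini-Hochberg over all probes) and at least a 2-fold difference. The 2 calls among 10 genes compare with 2.78% of all probes called in this comparison. Beside this, 3 of the 10 genes had an adjusted p under 0.05 at any fold (8.3% of all probes) and 8 of the 10 an unadjusted p under 0.05 (32.3% of all probes). The difference was positive for 9 of the 10 genes, with a median of 0.85 on the log2 scale, against 0.127 over all probes. The TSP-1-/- and WT arrays did not overlap for 5 of the 10 genes (30.8% of all probes), 4 of them higher in TSP-1-/- (20.2%) and 1 lower (10.7%). In RNA of whole tissue, fewer cells of a type and less RNA per cell cannot be told apart.

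**Figure D1:**
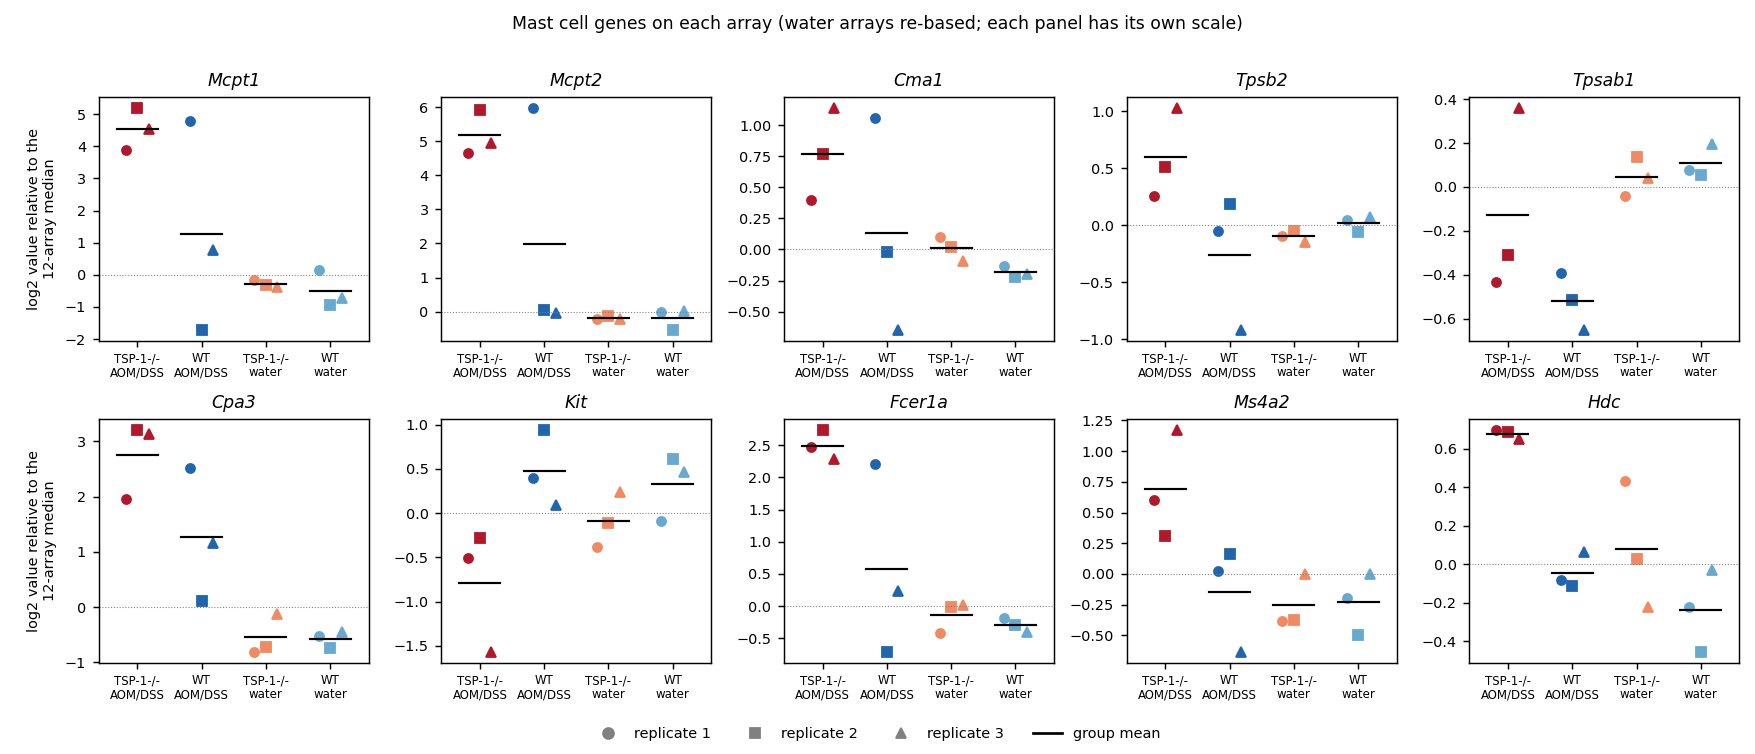
Log2 value of each gene relative to the 12-array median (y axis, own scale in each panel) on each array of the 4 groups (x axis), with water arrays re-based. Circles, squares and triangles are replicates 1, 2 and 3 and black bars are group means. Mcpt1, Mcpt2, Cpa3 and Fcer1a of WT AOM/DSS replicate 1 lie among or next to the TSP-1-/- AOM/DSS values, and the 3 TSP-1-/- values of Hdc lie between 0.65 and 0.70.

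The mucosal proteases varied most. Mcpt1 was at 3.89, 5.18 and 4.53 on the TSP-1-/- AOM/DSS arrays, against 4.77, -1.71 and 0.78 on the WT AOM/DSS arrays. Mcpt2 was at 4.67, 5.93 and 4.95 on the TSP-1-/- AOM/DSS arrays, against 5.97, 0.039 and -0.039 on the WT AOM/DSS arrays. WT AOM/DSS replicate 1 thus lay within the TSP-1-/- range for Mcpt1 and above it for Mcpt2, and the groups overlapped for both. Mcpt1 averaged 4.53 ± 0.65 in TSP-1-/- and 1.28 ± 3.27 in WT colons (SD, n = 3 each), a difference of 3.25 ± 1.14 (SE, 9.52-fold, limma adjusted p = 0.0810). Mcpt2 averaged 5.19 ± 0.66 in TSP-1-/- and 1.99 ± 3.45 in WT colons (SD, n = 3 each), a difference of 3.19 ± 1.18 (SE, 9.15-fold, limma adjusted p = 0.0942). Neither chymase passed the test with all 12 arrays. Without WT AOM/DSS replicate 1 the differences were 4.995 for Mcpt1 (adjusted p = 0.0014) and 5.19 for Mcpt2 (adjusted p = 1.59e-05), and both were called, as were 4.65% of all probes in that fit. Whether either gene was called thus turned on 1 WT array. Without WT AOM/DSS replicate 2 the differences were 1.76 for Mcpt1 and 2.22 for Mcpt2. After quantile normalization of the 12 arrays, which gives every array the same distribution, Mcpt1 differed by 1.70 (limma adjusted p = 0.42). Mcpt2 then differed by 1.49 (limma adjusted p = 0.50). This step acts on relative values that the authors had already quantile normalized. These spread more widely on the TSP-1-/- AOM/DSS arrays (SD 0.45, 0.42 and 0.75 over all probes) than on the WT AOM/DSS arrays (0.38, 0.31 and 0.39). How much of the drop comes from evening out this spread was not tested. Each of the 2 genes was called in 1 of 19 alternative fits.

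The genes of the mucosal chymases lie in a cluster with related proteases on chromosome 14, in which the annotation of GRCm38.p6 runs from Cma1 over Cma2, Mcpt1, Mcpt2, Mcpt9, Mcpt4 and Mcpt8 to Ctsg and the granzymes. Mcpt1 and Mcpt2 belong to a family of similar sequence, so probes of one can in part read RNA of the other, and the size of each value is uncertain to that extent. Mcpt2 minus Mcpt1 was 0.43 to 0.78 on the TSP-1-/- AOM/DSS arrays, 1.75 on WT AOM/DSS replicate 2 and -0.82 on WT AOM/DSS replicate 3. Each value is relative to its own probe, so these gaps do not say how far the probes share RNA. Mcpt4, a connective tissue chymase, was at 0.68, 2.15 and 1.54 on the TSP-1-/- AOM/DSS arrays, against 1.66, -0.046 and 0.046 on the WT AOM/DSS arrays, with the same WT array high (difference 0.90, adjusted p = 0.18), and it was called higher without that array. The 8 neighbouring genes of the cluster that are not mast cell genes (Ctsg, a neutrophil protease, and 7 granzymes of cytotoxic lymphocytes) had a median genotype difference of 0.077. Of them 0 were called higher and 1, Gzmd (-1.16, adjusted p = 0.0400), called lower, against 1.73% and 1.05% of all probes.

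The connective tissue type proteases moved less. Cpa3, which crops the products of the chymases, was at 1.96, 3.20 and 3.13 on the TSP-1-/- AOM/DSS arrays, against 2.53, 0.12 and 1.17 on the WT AOM/DSS arrays. It averaged 2.76 ± 0.70 in TSP-1-/- and 1.27 ± 1.21 in WT colons (SD, n = 3 each), a difference of 1.49 ± 0.50 (SE, 2.82-fold, adjusted p = 0.0715). Without WT AOM/DSS replicate 1 this was 2.12 (adjusted p = 0.0103, called). After quantile normalization, which gives every array the same distribution, it was -0.025, with no direction left. That step also narrows the wider spread of the TSP-1-/- AOM/DSS arrays, and its share in the drop was not tested. Cma1 was at 0.40, 0.77 and 1.14 on the TSP-1-/- AOM/DSS arrays, against 1.06, -0.023 and -0.65 on the WT AOM/DSS arrays. Its difference was 0.64 ± 0.33 (SE, adjusted p = 0.20) and 1.10 without WT AOM/DSS replicate 1 (adjusted p = 0.0148, called). Tpsb2, the main secreted tryptase, was at 0.26, 0.51 and 1.03 on the TSP-1-/- AOM/DSS arrays, against -0.046, 0.18 and -0.92 on the WT AOM/DSS arrays. The Tpsb2 groups did not overlap, with a difference of 0.86 ± 0.26 (SE, 1.81-fold, adjusted p = 0.0555) that missed the threshold. Tpsab1, annotated as a transcribed pseudogene in the C57BL/6 reference, was at -0.43, -0.31 and 0.36 on the TSP-1-/- AOM/DSS arrays, against -0.39, -0.52 and -0.65 on the WT AOM/DSS arrays, a difference of 0.39 ± 0.18 (SE, adjusted p = 0.16). Tpsb2 and Tpsab1 are close copies of each other, and their values are uncertain where probes read both. WT AOM/DSS replicate 1 lay below all TSP-1-/- AOM/DSS arrays for Tpsb2. For Tpsab1 it lay within their range, 0.27 below their mean and 0.19 above that of WT AOM/DSS replicates 2 and 3.

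**Figure D2:**
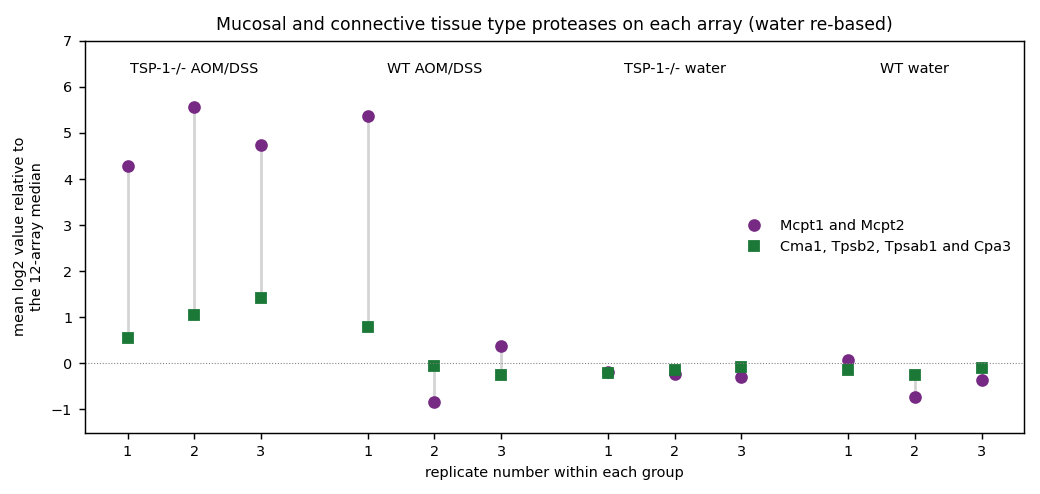
Mean log2 value relative to the 12-array median (y axis) of the 2 mucosal chymases (circles) and of the 4 connective tissue type proteases (squares) on each array (x axis, replicate number within each group), with water re-based and a grey line joining the means of an array. The mucosal mean stood 3.33 to 4.51 above the other on the 3 TSP-1-/- AOM/DSS arrays and 4.58 above it on WT AOM/DSS replicate 1.

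Set against each other array by array, the mucosal chymases stood above the connective tissue type proteases on all 3 TSP-1-/- AOM/DSS arrays and on 2 of the 3 WT AOM/DSS arrays. The mean of Mcpt1 and Mcpt2 minus the mean of Cma1, Tpsb2, Tpsab1 and Cpa3 was 3.73, 4.51 and 3.33 on the TSP-1-/- AOM/DSS arrays, against 4.58, -0.77 and 0.63 on the WT AOM/DSS arrays. On re-based water it was 0.017, -0.071 and -0.21 on the TSP-1-/- arrays, against 0.21, -0.49 and -0.26 on the WT arrays. The groups overlapped in both array sets. The score averaged 3.86 ± 0.60 in TSP-1-/- AOM/DSS and 1.48 ± 2.78 in WT AOM/DSS colons (SD, n = 3 each). The difference of 2.38 is given with no test, since the genes of the score were chosen with their values known, and it was 3.93 without WT AOM/DSS replicate 1. The values are relative to each probe, so the score says that mucosal transcripts stood further above their own baseline, and not that more of them were present.

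Receptor and histamine genes did not move as a block. Fcer1a was at 2.47, 2.73 and 2.28 on the TSP-1-/- AOM/DSS arrays, against 2.21, -0.71 and 0.24 on the WT AOM/DSS arrays. All TSP-1-/- values were above all WT values, and WT AOM/DSS replicate 1 again lay near the TSP-1-/- arrays. The difference was 1.91 ± 0.52 (SE, 3.76-fold, limma adjusted p = 0.0459), which was called, and 2.72 without WT AOM/DSS replicate 1 (adjusted p = 0.00025). The call held in 2 of 19 alternative fits, with adjusted p between 0.00025 and 0.54. Ms4a2, the beta chain of the same receptor, was at 0.60, 0.31 and 1.17 on the TSP-1-/- AOM/DSS arrays, against 0.028, 0.16 and -0.63 on the WT AOM/DSS arrays. Its groups did not overlap either, with a difference of 0.84 ± 0.25 (SE, 1.79-fold, adjusted p = 0.0571) that was not called, and WT AOM/DSS replicate 1 lay with the other WT arrays.

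Kit, the stem cell factor receptor that mast cells share with the pacemaker cells of gut muscle (interstitial cells of Cajal), ran the other way. Kit was at -0.51, -0.28 and -1.57 on the TSP-1-/- AOM/DSS arrays, against 0.40, 0.94 and 0.094 on the WT AOM/DSS arrays. All TSP-1-/- values were below all WT values, with a difference of -1.26 ± 0.33 (SE, 2.40-fold lower, limma adjusted p = 0.0413), which was called. The call held in 6 of 19 alternative fits, with adjusted p between 0.0251 and 0.147. The lowest Kit value came from TSP-1-/- AOM/DSS replicate 3, where the median of 8 smooth muscle genes was -0.80 (TSP-1-/- AOM/DSS replicates 1 and 2 gave -0.34 and 0.18). Over 6 probes of other Cajal cell genes (Ano1, Etv1, Gja1, Hcn4 and Prkcq) the median genotype difference was 0.34, and 0 were called in either direction (2.78% of all probes). Both Etv1 probes were negative (-0.086 and -0.76), and the others ran from 0.28 for Hcn4 to 0.88 for Prkcq. Prkcq was at 0.26, -0.33 and 2.74 on the TSP-1-/- AOM/DSS arrays, against 0.36, -0.11 and -0.23 on the WT AOM/DSS arrays. Its high value came from TSP-1-/- AOM/DSS replicate 3, where T cell genes had a median of 2.80. Whether the listed genes report Cajal cells in these samples was not tested. The part of muscle or Cajal cells in the Kit values was not tested.

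Hdc, the enzyme that makes histamine from histidine, had the closest replicates of the 10 genes under AOM/DSS, though not on water. Hdc was at 0.70, 0.69 and 0.65 on the TSP-1-/- AOM/DSS arrays, against -0.080, -0.11 and 0.063 on the WT AOM/DSS arrays. The groups stood apart, 0.68 ± 0.024 in TSP-1-/- and -0.044 ± 0.094 in WT colons (SD, n = 3 each), and WT AOM/DSS replicate 1 lay with the other WT arrays. The difference of 0.72 ± 0.17 (SE, 1.65-fold, limma adjusted p = 0.0312) had the lowest adjusted p of the 10 genes and was under the 2-fold minimum, so that it was not called. Hdc lies on chromosome 2, as does Thbs1, with 130 protein-coding genes between them. Neutrophils and enterochromaffin-like cells also make Hdc, and 8 neutrophil genes had medians of 1.66 to 2.54 on the TSP-1-/- AOM/DSS arrays, against 0.28, -0.48 and -0.48 on the WT AOM/DSS arrays. Among the water arrays as deposited, TSP-1-/- replicate 1 had a neutrophil median of 0.42, against -3.12 to -2.18 on the others. It also had the highest Hdc value on water, and without it the Hdc difference on water was 0.14. The part of neutrophils and enterochromaffin-like cells in the Hdc values was not tested.

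**Figure D3:**
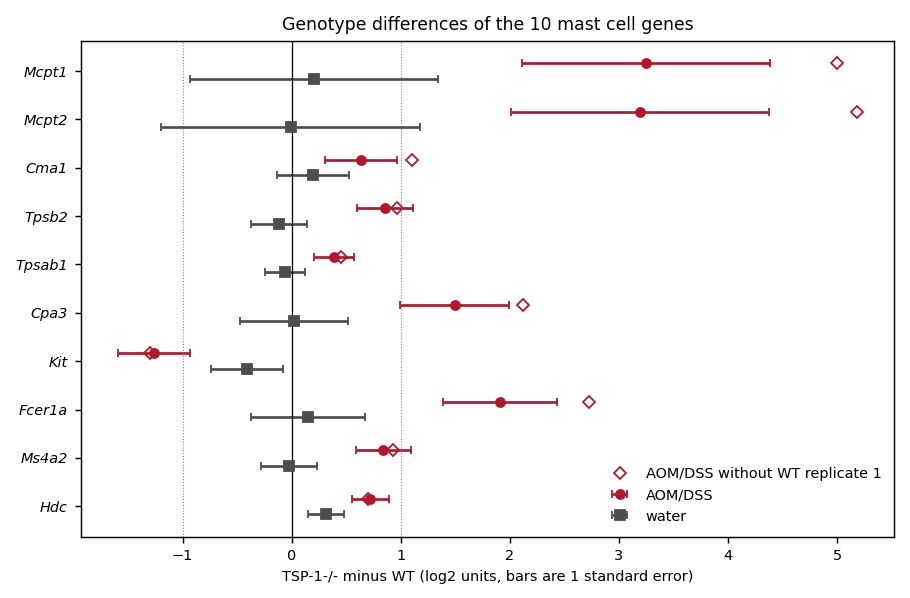
TSP-1-/- minus WT difference in log2 units (x axis) of each gene (y axis) under AOM/DSS (red circles) and on water (dark squares), with bars of 1 standard error from the fit to 12 arrays, and dotted lines at 2-fold. Open diamonds give the AOM/DSS difference without WT AOM/DSS replicate 1, which lies at 4.995 for Mcpt1 and 5.19 for Mcpt2 and moves little for Kit, Tpsab1 and Hdc.

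None of the 10 genes passed the test between genotypes on water. Of the 10 genes, 0 were called (limma) and 0 had an unadjusted p under 0.05, as were 0% and 0.999% of all probes, and 5 of the 10 differences were positive. Mcpt1 was at -0.16, -0.32 and -0.38 on the re-based TSP-1-/- water arrays, against 0.16, -0.93 and -0.71 on the re-based WT water arrays. Mcpt2 was at -0.23, -0.12 and -0.21 on the re-based TSP-1-/- water arrays, against -0.0052, -0.53 and 0.0052 on the re-based WT water arrays. The groups overlapped for 9 of the 10 genes, the exception being Cma1, with a difference of 0.19 (1 of 10 genes apart upward and 0 downward, against 2.29% and 2.88% of all probes, or 5.17% in all). The standard errors of the fit to 12 arrays carry the spread of WT AOM/DSS replicate 1 into the water comparison. In a fit to the 6 water arrays alone the differences were 0.21 ± 0.26 for Mcpt1, -0.0098 ± 0.16 for Mcpt2, 0.025 ± 0.19 for Cpa3, 0.15 ± 0.15 for Fcer1a, -0.41 ± 0.22 for Kit and 0.32 ± 0.19 for Hdc (SE, adjusted p = 1.00 each).

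Whether the genotype difference was itself larger under AOM/DSS than on water was tested as the difference of the 2 differences, in which the baselines cancel. With 12 arrays 0 of the 10 genes were called (0.00694% of all probes), with adjusted p between 0.27 and 0.64, and 3 of the 10 had an unadjusted p under 0.05 (15.4% of all probes). The estimates were 3.04 ± 1.61 for Mcpt1, 3.20 ± 1.67 for Mcpt2, 1.76 ± 0.74 for Fcer1a and 1.47 ± 0.70 for Cpa3 (SE). Without WT AOM/DSS replicate 1, Mcpt1 (4.79, adjusted p = 0.0222), Mcpt2 (5.19, adjusted p = 0.00038) and Fcer1a (2.57, adjusted p = 0.0067) were called, as were 1% of all probes in that fit. The values of Fcer1a and Kit under AOM/DSS were therefore called in 1 treatment and not in the other, while a difference between treatments did not pass the test with all arrays.

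Against re-based water, transcripts of the 2 mucosal chymases, Cpa3 and Fcer1a were the furthest up. In TSP-1-/- colons the AOM/DSS mean exceeded the re-based water mean by 4.82 for Mcpt1 (28.3-fold), 5.37 for Mcpt2 (41.4-fold), 3.31 for Cpa3 (9.93-fold) and 2.63 for Fcer1a (6.19-fold). In WT colons the same differences were 1.78 (3.43-fold), 2.17 (4.49-fold), 1.84 (3.59-fold) and 0.87 (1.83-fold). Without WT AOM/DSS replicate 1 the WT differences were 0.032 for Mcpt1, 0.18 for Mcpt2, 1.22 for Cpa3 and 0.057 for Fcer1a. At least a 2-fold difference was found for 4 of the 10 genes in TSP-1-/- colons (3.51% of all probes), for 3 in WT colons (0.351%) and for the same 3, Mcpt1, Mcpt2 and Cpa3, in both (0.208%). The other 6 genes stayed within 2-fold in both genotypes, between -0.70 for Kit and 0.95 for Ms4a2 in TSP-1-/- colons and between -0.63 for Tpsab1 and 0.31 for Cma1 in WT colons. These differences are set across separately normalized array sets and carry no p.

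**Figure D4:**
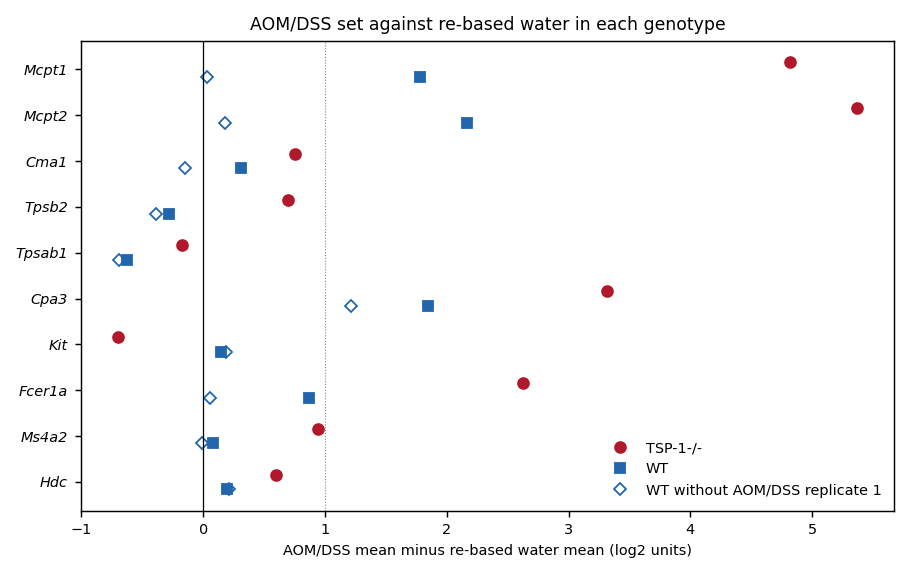
AOM/DSS mean minus re-based water mean in log2 units (x axis) of each gene (y axis) in TSP-1-/- (red circles) and WT colons (blue squares), with dotted lines at 2-fold. Open diamonds are WT without AOM/DSS replicate 1, where Cpa3 is the only one of the 10 genes still past 2-fold, at 1.22.

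Cpa3 was the only one of the 10 genes for which all 6 AOM/DSS arrays lay above the 12-array median and hence above all 6 re-based water arrays, as did 2.02% of all probes, and 0 of the 10 genes had all 6 below it (3.99% of all probes). The re-based water values of Cpa3 were -0.81, -0.72 and -0.12 on the TSP-1-/- arrays, against -0.53, -0.74 and -0.45 on the WT arrays. For Mcpt1, Mcpt2, Fcer1a and Ms4a2 5 of the 6 AOM/DSS arrays lay above the median, and the array below was a WT array in each case. Kit had 3 of 6 arrays above and Tpsab1 1 of 6.

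Among other listed mast cell genes, chymases and tryptases, those called were lower in TSP-1-/- AOM/DSS colons. The list held 18 genes with 19 probes, among them receptors, granule and eicosanoid genes, transcription factors and genes of other functions. Of these, 0 were called higher and 1, Tph1 (-2.09, adjusted p = 0.0283), called lower in TSP-1-/- AOM/DSS colons, against 1.73% and 1.05% of all probes. The median difference was 0.18. Tph1 makes serotonin and is also made by enterochromaffin cells of the epithelium. Mrgprb2, the receptor by which connective tissue mast cells respond to peptides, was at -0.48, -0.032 and -0.11 on the TSP-1-/- AOM/DSS arrays, against -0.91, -0.76 and -0.28 on the WT AOM/DSS arrays. Srgn, the proteoglycan core of granules in mast cells and other leukocytes, was singled out after its values were seen, at 1.00, 1.09 and 2.45 on the TSP-1-/- AOM/DSS arrays, against 0.26, -0.82 and 0.47 on the WT AOM/DSS arrays. The Srgn groups did not overlap, and the difference of 1.54 was not called (adjusted p = 0.0683). Gata2, a factor that mast cells need, had a difference of 0.42 (adjusted p = 0.14). Of the 2 further chymases and tryptases with a probe, Mcpt4 and Tpsg1, the membrane-bound tryptase Tpsg1 was called lower (-1.03, adjusted p = 0.0234). The 4 basophil genes, Mcpt8, Prss34, Cd200r3 and Il3ra, had medians of -0.14 to -0.012 on the TSP-1-/- AOM/DSS arrays, against -0.080, -0.11 and -0.35 on the WT AOM/DSS arrays, and 0 of 4 were called.

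Of 11 genes that act with or downstream of the IgE receptor, 3 were called higher in TSP-1-/- AOM/DSS colons (1.73% of all probes) and 0 lower (1.05%), with a median difference of 1.00, against 0.127 over all probes. They were Btk, a kinase of B cells and mast cells (2.41, adjusted p = 0.0285), the adaptor Lcp2 (1.90, adjusted p = 0.0245) and the kinase Fyn (1.29, adjusted p = 0.0373). All of these also serve lymphocytes or other leukocytes, and 4 pan-leukocyte genes had medians of 1.52, 0.36 and 3.10 on the TSP-1-/- AOM/DSS arrays, against 0.10, -0.14 and 0.092 on the WT AOM/DSS arrays. The gamma chain Fcer1g, which the IgE receptor shares with other Fc receptors, was at 0.24, 0.87 and 1.33 on the TSP-1-/- AOM/DSS arrays, against -0.11, -0.42 and -0.029 on the WT AOM/DSS arrays (difference 1.00, adjusted p = 0.0754). The part of other leukocytes in these values was not tested.

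Among 18 factors of mast cell growth, homing and maturation, 3 were called higher (1.73% of all probes) and 0 lower (1.05%), with a median difference of 0.44, against 0.127 over all probes. They were the chemokine receptor Cxcr2 (4.58, adjusted p = 0.0184), which neutrophils also carry, the adhesion molecule Vcam1 (1.76, adjusted p = 0.0184) and Notch2 (1.05, adjusted p = 0.0413). The stem cell factor gene Kitl had a difference of 0.37 (adjusted p = 0.18), and Il9, a mast cell growth factor, one of 0.26 (adjusted p = 0.28). Of the 6 genes of histamine receptors and breakdown 0 were called. Hnmt, which methylates histamine, was at -1.09, -0.62 and -0.47 on the TSP-1-/- AOM/DSS arrays, against 0.12, 0.26 and -0.16 on the WT AOM/DSS arrays, a difference of -0.80 (adjusted p = 0.0369) under the 2-fold minimum, and was singled out after its values were seen.

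**Figure D5:**
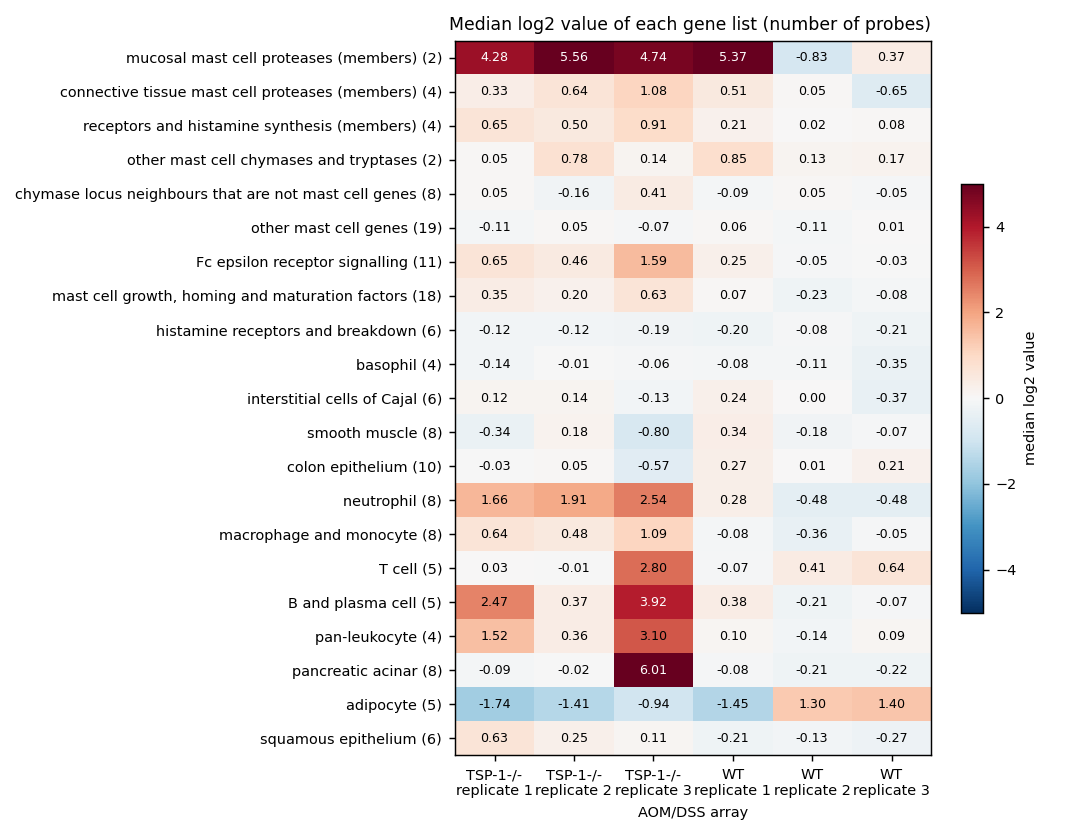
Median log2 value relative to the 12-array median (colour and printed value) of each gene list (y axis, number of probes in brackets) on the 6 AOM/DSS arrays (x axis). The mucosal proteases are above 4 on the TSP-1-/- arrays and on WT AOM/DSS replicate 1, the adipocyte list is below 0 on the same 4 arrays, and the pancreatic list is at 6.01 on TSP-1-/- AOM/DSS replicate 3.

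Arrays differed in the marker genes of other cell types. Adipocyte genes (5 probes) had medians of -1.74, -1.41 and -0.94 on the TSP-1-/- AOM/DSS arrays, against -1.45, 1.30 and 1.40 on the WT AOM/DSS arrays, so that WT AOM/DSS replicate 1 lay with the TSP-1-/- arrays here too, with the sign turned. On WT AOM/DSS replicate 1, 5 of the 10 genes (Mcpt1, Mcpt2, Cma1, Cpa3 and Fcer1a) lay closer to the TSP-1-/- average than to that of WT AOM/DSS replicates 2 and 3, as did 42.7% of all probes. Values were most dispersed on TSP-1-/- AOM/DSS replicate 3 (SD 0.75 over all probes, against 0.29 to 0.45 elsewhere). On it 8 pancreatic enzyme genes had a median of 6.01, B and plasma cell genes (5 probes) one of 3.92 and T cell genes (5 probes) one of 2.80, and Cma1, Tpsb2, Tpsab1 and Ms4a2 had their highest values there. Without this array 0 of the 10 genes were called under AOM/DSS, and calls over all 28853 probes fell from 802 to 170. Macrophage genes (8 probes) had medians of 0.48 to 1.09 on the TSP-1-/- AOM/DSS arrays, against -0.36 to -0.054 on the WT AOM/DSS arrays. Squamous genes (6 probes) ran from 0.11 to 0.63 on the TSP-1-/- arrays, against -0.27 to -0.13 on the WT arrays. Over all probes, 1.73% were called higher and 1.05% lower in TSP-1-/- AOM/DSS colons. Called higher there were 3 of 8 neutrophil genes (Cxcr2, Mmp9 at 1.90 and Csf3r at 2.56), 2 of 8 macrophage genes (Csf1r at 1.03 and Lyz2 at 1.78) and 2 of 6 squamous genes (Krt14 at 1.70 and Krt4 at 1.01). Of the B cell probes 2 of 5 (Cd79a at 2.69 and Cd79b at 2.48) and of the pan-leukocyte genes 1 of 4 (Laptm5 at 1.91) were called higher, and of the adipocyte probes 1 of 5 (Retn at -2.04) was called lower. Of 10 colon epithelium genes, 0 were called higher and 1, Car1 (-1.09, adjusted p = 0.0445), called lower. Thbs1 itself was at 0.81, 0.85 and 0.93 on the TSP-1-/- AOM/DSS arrays, against 0.27, -0.16 and -0.069 on the WT AOM/DSS arrays, so its probe gives no check of the genotype labels, and whether it reads the mutated part was not analysed here. The part of any of these tissues in the mast cell values was not tested.

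The genes most like the mucosal chymases over the 6 AOM/DSS arrays were sought outside the 10 genes and outside probes with several symbols. Fcer1a, left out for that reason, had r = 0.980 and Cpa3 r = 0.941 with the mean of Mcpt1 and Mcpt2, and both probes with 2 symbols of the chymase cluster had r = 0.993. Among the 612 remaining probes with an SD of at least 1, the 5 highest correlations with the mean of Mcpt1 and Mcpt2 were those of Vsig1 (r = 0.994), Hoxa9 (r = 0.986), Nox1 (r = 0.985), Pla2g2a (r = 0.981) and B3gnt5 (r = 0.976). Pla2g2a, a secreted phospholipase A2, was at 3.27, 3.86 and 3.68 on the TSP-1-/- AOM/DSS arrays, against 3.17, -2.34 and -0.34 on the WT AOM/DSS arrays. The same 4 arrays were high and the same 2 low as for Mcpt2, and 15 probes had an r over 0.95. Vsig1, Hoxa9 and B3gnt5 lay further below the baseline on WT AOM/DSS replicates 2 and 3 than above it on the other AOM/DSS arrays. Vsig1 was at 0.28, 0.80 and 0.85 on the TSP-1-/- AOM/DSS arrays, against 0.85, -3.84 and -2.82 on the WT AOM/DSS arrays. Nox1 was at 0.48, 1.09 and 0.47, against 1.39, -1.90 and -1.09. A high r thus does not say that a gene rose as the chymases did. With the mean of the 4 connective tissue type proteases, the 5 highest were Itln1 (r = 0.982), an intestinal lectin, Wfdc18 (r = 0.980), Cfi (r = 0.970), Grhl3 (r = 0.970) and Mmp3 (r = 0.970). These correlations are over 6 arrays of 2 genotypes, which fall into high and low arrays, and are given as a description.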

How the data were processed

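Affymetrix MoGene 1.0 ST arrays, 12 in all, measured colon RNA. The deposited values are log2 signals, which the authors quantile normalized (PLIER16) and set relative to a median per probe, stated as that of all 12 samples. They were used as deposited, and 0 columns belonged to no sample. A median of 12 values leaves a pair of arrays mirrored around 0 (sum within 2e-06). That pair was 1 AOM/DSS and 1 water array for 0.0347% of probes, against 54.5% had 1 median served all 12 arrays, so the water arrays lie on another baseline. The pair lay within the AOM/DSS set for 20.2% of probes, against 22.7% had 1 median of 12 arrays served it. The per-probe offset of the water arrays was tested on simulated data that held such an offset and nothing else. For Mcpt2 the mirrored pair was WT AOM/DSS replicates 2 and 3 (0.039 and -0.039). Re-basing put WT water replicates 1 and 3 between them (-0.0052 and 0.0052), so re-based values are approximate.

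Probes with 1 symbol (21789) were named from GEO's platform annotation, and 1621 with several symbols were not. Of the 28853 probes, 38 lacked water values. Genotypes were compared with limma 3.58.1 (R 4.3.3) on all 12 arrays, 1 mean per group, in place of the analysis of variance in the methods, with a call at an adjusted p under 0.05 and 2-fold. The fit was first tested on simulated data. No filter on low signals was used, because values relative to a median carry no signal level. The labels call the arrays of a group biological replicates, and their number limits the precision.

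All 10 genes are named, and of other lists those called and otherwise up to 4 a list. The most alike genes are the 5 with the highest Pearson r among probes with 1 symbol, the 10 genes left out, and an SD of at least 1. The genes, lists and tests were chosen with earlier results of these data known. Alternatives were fits of 1 array set, other scaling, the methods' variability filter, array weights, a replicate block and leaving out each array. Python 3.11.15, pandas 2.3.3 and numpy 2.4.6 were used.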

Additional observations from a re-analysis of the deposited data

Results flagged for a closer look

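Probes 10415425 and 10420241 each carry 2 gene symbols of the chymase cluster. They were in the fit to all probes but stood for no named gene and entered no gene list. Both lay well above their baseline on all TSP-1-/- AOM/DSS arrays and on WT AOM/DSS replicate 1, and close to it on WT AOM/DSS replicates 2 and 3. Probe 10415425 averaged 5.06 ± 0.73 on the TSP-1-/- AOM/DSS arrays and 1.87 ± 3.33 on the WT AOM/DSS arrays (SD, n = 3 each). Probe 10420241 averaged 5.03 ± 0.73 on the TSP-1-/- AOM/DSS arrays and 1.86 ± 3.31 on the WT AOM/DSS arrays. On the WT AOM/DSS arrays the first was at 5.71, -0.14 and 0.044, so that replicate 1 was again the high one. The genotype differences were 3.19 (limma adjusted p = 0.0874) and 3.17 (adjusted p = 0.0876), and 5.11 and 5.08 without WT AOM/DSS replicate 1 (adjusted p = 1.65e-05 each). On the AOM/DSS arrays the probes lay within a mean of 0.15 and 0.17 log2 units of Mcpt2, and which gene they read was not tested.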

How the results depend on the processing

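With all arrays 2 of the 10 genes were called under AOM/DSS. The count was 0 in a fit to the groups of the contrast alone, 0 after quantile normalization of the 12 arrays and 0 with array weights, 1 with each array centred on its median, 1 when quantiles were equalised per array set, and 0 to 5 on leaving out 1 of the 12 arrays. It was 5 without WT AOM/DSS replicate 1. It was 0 without WT AOM/DSS replicate 3, TSP-1-/- AOM/DSS replicate 1 or 3, any WT water array, or TSP-1-/- water replicate 1 or 2. Over all probes the count of 802 calls was 6 in the fit to the groups of the contrast alone, 183 after quantile normalization of the 12 arrays, 381 with array weights and 104 to 1402 on leaving out 1 array. Replicate numbers did not pair the samples under AOM/DSS (correlations of same-numbered deviations 0.026, -0.043 and -0.025). On water these were 0.093, 0.28 and 0.40 for replicates 1, 2 and 3, against 0.18, -0.010 and -0.074 for the best other number. The same number was thus the closer one for water replicates 2 and 3, and its origin was not tested. With the replicate number as a block 1 of the 10 genes, Kit, was called under AOM/DSS and 0 on water.

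The difference of Cpa3 under AOM/DSS turned to -0.025 after quantile normalization of the 12 arrays and to -0.012 within each array set. For the difference of the differences, quantile normalization of the 12 arrays gave -0.026 for Cma1 and -0.13 for Cpa3, and within each array set -0.086 for Cpa3. Its count of 0 called genes was 0 to 3 on leaving out 1 array, and 3 without WT AOM/DSS replicate 1. On water, where differences lay near 0, Mcpt2 turned to 0.0073 after quantile normalization within each set and Cpa3 to -0.10 with array weights. Leaving out 1 water array turned the sign of Mcpt2 (-0.19 to 0.081, with 0.076 and 0.013 also above 0), Mcpt1 (-0.012 to 0.53), Cpa3 (-0.19 to 0.16, with -0.059) and Ms4a2 (-0.16 to 0.092, with 0.041 and 0.037). The count of 3 genes at least 2-fold above re-based water in both genotypes was 1 to 4 on leaving out 1 array, and 1 without WT AOM/DSS replicate 1.

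The mucosal minus connective tissue score was tried in settings all chosen after seeing the data and kept its sign in each, at 1.25 to 3.93 on leaving out 1 of the 6 AOM/DSS arrays, 1.34 after quantile normalization of the 12 arrays, 1.81 within each set, 2.59 without Cpa3 and 2.23 without Tpsab1. The cause of these changes was not tested. Signal over background is not held in relative values, so dim probes could not be told from bright ones.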
